A study of Mus musculus with 8 samples.

Results

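To describe the galanin system in the hypothalamus, the 5 genes of the galanin family were followed in 4 hypothalamic nuclei, namely the arcuate (Arc), ventromedial (VMH), dorsomedial (DMH), and lateral (LH) nucleus. The family holds the peptide genes *Gal* (galanin) and *Galp* (galanin-like peptide) and the receptor genes *Galr1*, *Galr2*, and *Galr3*. The genes were chosen by name as a family, with no threshold on measured values, and are 5 of the 20284 genes that a RefSeq accession names on the array. Each of the 5 genes had 1 probe, and all 5 probes are described here.

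The tissue came from female C57BL/6 mice (C57BL/6J in the methods) aged 3 months, for which the labels give no treatment and no altered gene, so that the groups differ by nucleus alone. Each nucleus was cut out by laser microdissection, and per the methods 2 mice gave the tissue. Arc, VMH, DMH, and LH have 2 arrays each, called Arc1, Arc2, and so on, and the 8 arrays lay on 1 slide that was read in 1 scan. The labels do not say which arrays share a mouse, so every p below measures only the spread between arrays of the same nucleus, which may be technical. In tissue pieces of this kind, fewer cells of a type and less RNA per cell cannot be told apart.

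Galanin is a neuropeptide that is cut from a longer precursor and stored in dense-core vesicles, often in neurons that also use GABA. Galanin-like peptide is a related peptide made by few cells of the Arc and known for its part in feeding and reproduction. The receptors are G protein-coupled. GALR1 and GALR3 signal mainly through inhibitory G proteins, which lower cAMP and open potassium channels, and GALR2 also signals through phospholipase C. In the hypothalamus, galanin is known for its roles in food intake, sleep, body temperature, and hormone release.

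Values are given as scaled signal, which is the deposited probe intensity divided by the 75th percentile of the array and brought back to the common scale of all arrays. A probe counts as measured on an array where the scanner software called it well above background, which held for 46.3% to 52.1% of the probes of an array. Scaled signals were compared between nuclei within a probe, since probes differ in brightness for reasons other than the amount of RNA. Log2 signals were fitted with limma, and each p was corrected over all 28896 probes tested (Benjamini-Hochberg, threshold 0.05).

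The markers of the labelled nuclei followed the labels, with LH markers also in the DMH and, at a lower level, in the VMH. The summed signal of *Agrp*, *Npy*, and *Pomc*, the peptide genes of Arc neurons, was 114102 to 120398 on the Arc arrays and at most 4842 on the others. *Nr5a1* and *Fezf1*, transcription factor genes of the VMH, summed to 17676 to 19750 on the VMH arrays and to at most 775 elsewhere. *Grp*, *Npvf*, and *Prdm13* of the DMH summed to 8377 to 11001 on the DMH arrays, to 923 on LH1, and to at most 503 on the rest. The study picked these DMH genes from these same arrays by their high DMH signal, so they are no independent check of the DMH label. *Hcrt* and *Pmch*, the hypocretin and melanin-concentrating hormone genes of LH neurons, summed to 123622 and 133754 on the LH arrays and also to 62914 and 72193 on the DMH arrays. They summed to 4623 and 3415 on the VMH arrays, mostly through *Pmch* (3938 and 3140), and to 286 and 312 on the Arc arrays.

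The probes of the family differed widely in brightness and in how well they were measured, as the plot of the 5 genes by array shows. *Gal* was well above background on all 8 arrays and was bright in the Arc and the DMH and dim in the VMH. The *Galr1* probe was measured only on the DMH arrays. The *Galr3* probe was measured, at a dim level, in the Arc, VMH, and DMH. The *Galp* and *Galr2* probes were not well above background on any array.

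**Figure D1:**
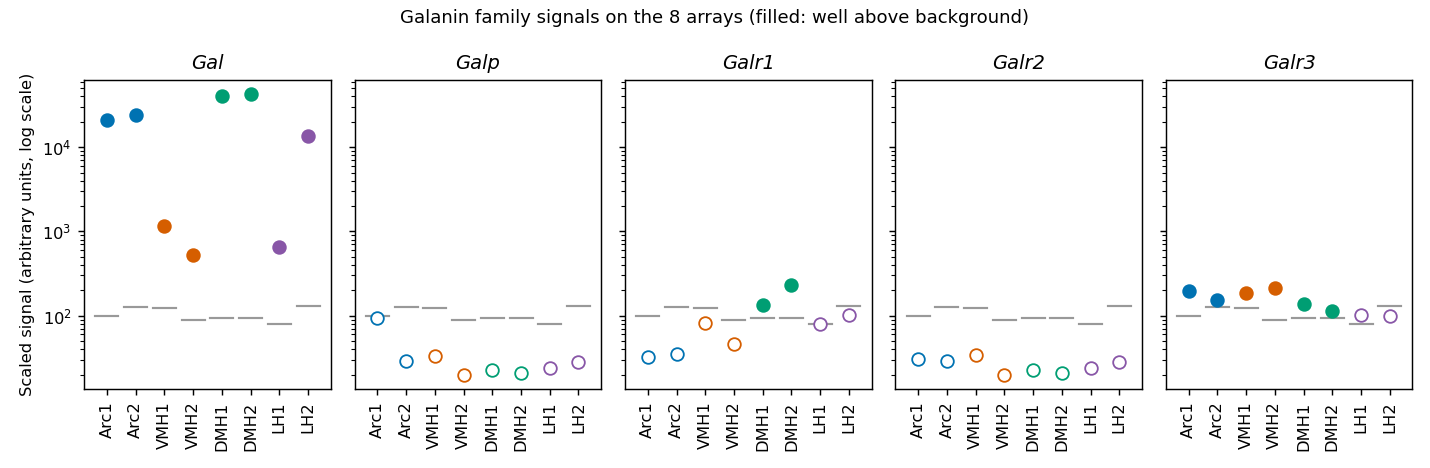
Scaled signal (arbitrary units, log scale) of the 5 galanin family probes on the 8 arrays, with 1 point per array, filled where the probe was well above background and open where it was not; the gray line of each array is the lowest signal among its probes that were well above background. *Gal* spans 528 to 43021, whereas the points of *Galp* and *Galr2* are open circles on every array.

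*Gal* lies on chromosome 19 at chr19:3409915-3414544 of GRCm38.p6, on the minus strand. The 250 bases before its annotated start, at chr19:3414545-3414794 on the same strand, are shown because *Gal* is the member with the widest range between nuclei. They come from the RefSeq promoter table of this build, which has an entry for 3 of the 5 genes, and 62.4% of them are G or C.

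*Gal*, 250 bases before the start: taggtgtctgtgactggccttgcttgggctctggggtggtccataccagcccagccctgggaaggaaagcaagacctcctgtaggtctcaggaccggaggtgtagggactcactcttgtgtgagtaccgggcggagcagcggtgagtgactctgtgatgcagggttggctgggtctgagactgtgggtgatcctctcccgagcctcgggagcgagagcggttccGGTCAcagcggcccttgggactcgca

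The capitals mark GGTCA, a half-site of the estrogen response element, which begins 26 bases before the start. Of 32851 promoter windows of 300 bases, 40.5% held GGTCA on either strand. TGACG, a half-site of the cAMP response element, begins 19 bases after the start, beyond the bases printed, and 20.8% of the windows held it on either strand. The letters TATAAA, held by 13.6% of the windows, were not found on either strand of the 300 bases around the start of *Gal*. These matches are descriptions of the letters only.

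In the Arc, the scaled signal of *Gal* was 20838 and 24187. In the VMH it was 1147 and 528, and in the DMH it was 40669 and 43021. Among these nuclei the DMH was highest, the Arc next, and the VMH far below, and the lead of the DMH over the Arc was not called. In the LH the arrays disagreed, with 656 on LH1 and 13551 on LH2. LH1 lay among the VMH values and LH2 between the VMH and the Arc.

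The gap between the LH arrays was 20.7-fold, whereas the arrays of the Arc, VMH, and DMH differed by 1.16-fold, 2.17-fold, and 1.06-fold for *Gal*. Of 28803 tested probes with a value on both LH arrays, 109 (0.378%) differed by as much as *Gal* or more, and 107 of these were lower on LH1. In the VMH, 4.01% of the probes had a gap as wide as that of *Gal*. In the Arc and the DMH, the gap of *Gal* was an ordinary one, since 52.8% and 82.8% of the probes differed by as much or more.

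**Figure D2:**
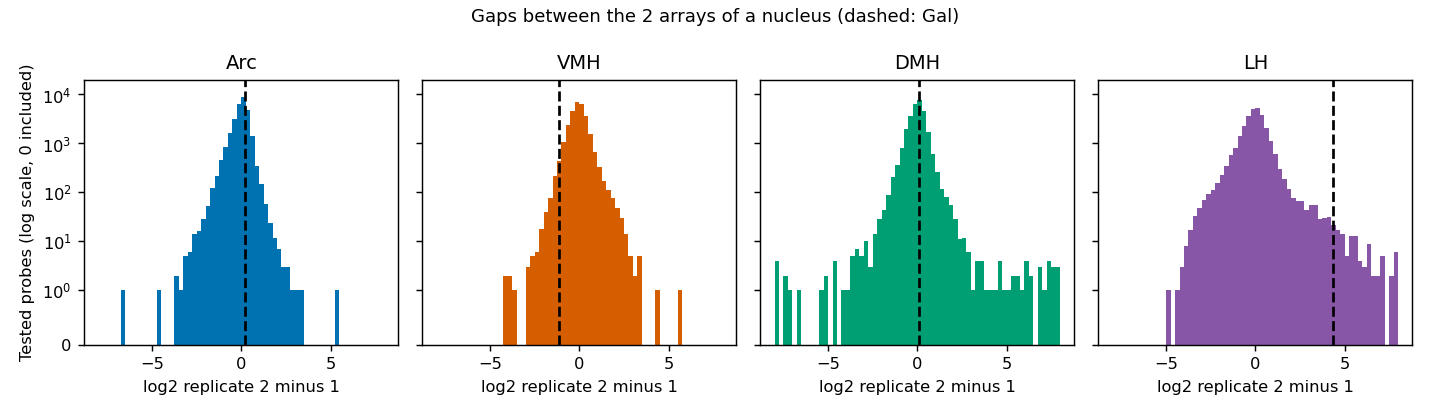
Number of tested probes (vertical axis, log scale with 0 included) by the log2 difference of scaled signal between the arrays of a nucleus, replicate 2 minus replicate 1 (horizontal axis; the end bins hold wider gaps as well); the dashed line is *Gal*. *Gal* sits near the center in the Arc (0.22) and the DMH (0.08) and in the far right tail in the LH (4.37).

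The *Gal* spot of LH1 lay in a region of the array where many spots were low. On this array, 577 of 31087 spots of tested probes (1.86%) were at least 4-fold lower than on LH2, and they were crowded in the area that surrounds *Gal*, as the map of low spots shows. Around *Gal*, within 5 rows and 5 columns, 8 of 66 other spots of tested probes (12.1%) were at least 4-fold lower, with 2 of 67 on LH2 in the reverse direction and 0 of 68 on each Arc, VMH, and DMH array. Within 2 rows and 2 columns, 4 of 14 such spots were low on LH1, the lowest of them by 117-fold.

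**Figure D3:**
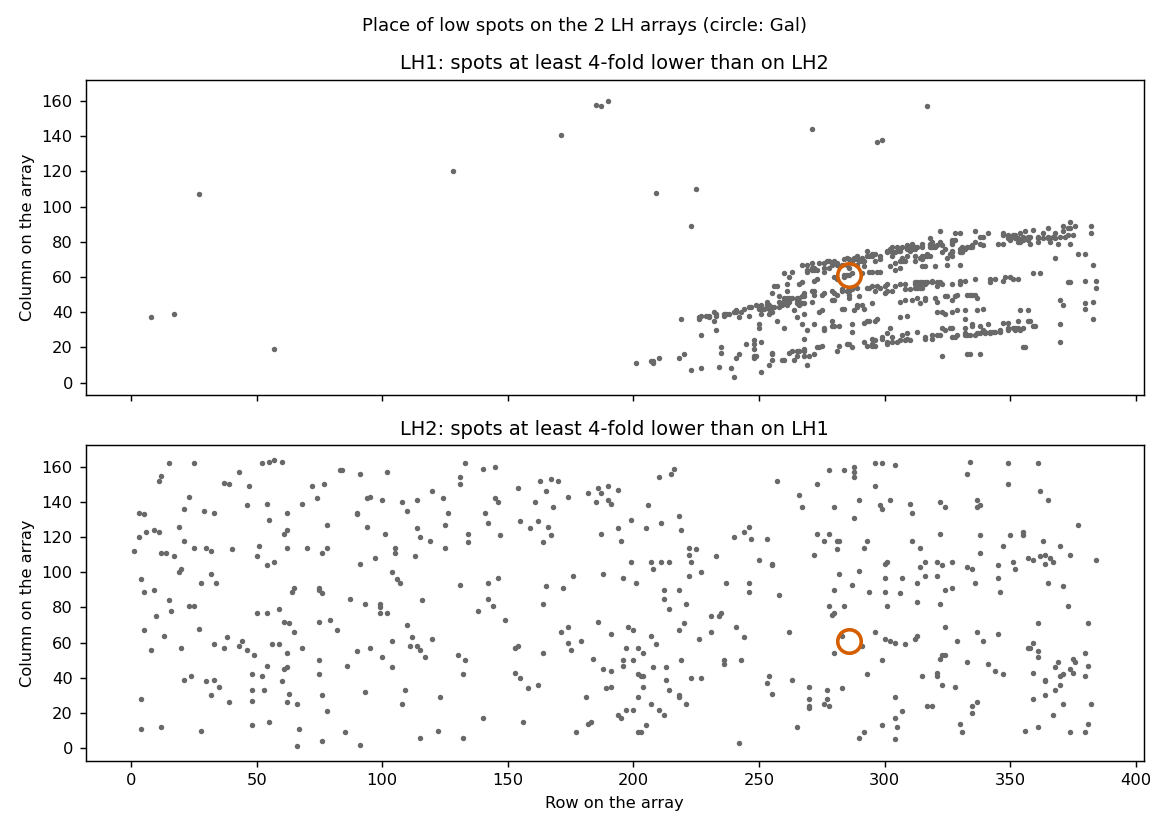
Place on the array, by row (horizontal axis) and column (vertical axis), of every spot of a tested probe that was at least 4-fold lower on LH1 than on LH2 (upper panel) or on LH2 than on LH1 (lower panel); the circle is *Gal*. The 577 low spots of LH1 crowd in one area that includes *Gal*, whereas the 544 of LH2 are spread over the array.

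A spot was counted as lying in a patch where at least 10% of the tested probes around it were low. On LH1, 4215 of 59305 spots (7.11%) lay in patches, against at most 0.518% on any other array. Of the 107 spots at least as much lower on LH1 as *Gal*, itself included, 90 (84.1%) lay in patches. Of all 577 low spots of LH1, 423 (73.3%) lay in patches, where each low spot counts toward its own patch. LH1 also carried 364 spots marked as outliers by the scanner software, against 126 to 161 on the other arrays, and the *Gal* spot was not among those marked. The spots of *Galp*, *Galr1*, *Galr2*, and *Galr3* lay in no patch on any array.

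Genes of LH neurons did not share the low value of *Gal* on LH1. *Hcrt* had 105971 on LH1 and 116750 on LH2, and *Pmch* had 17650 and 17005. The LH arrays did differ in genes of neighbouring nuclei. The DMH markers summed to 923 on LH1 and 89.5 on LH2. Of the genes of the paraventricular nucleus, *Oxt* had 109 on LH1 and 8332 on LH2 and *Avp* had 279 and 2432, whereas *Crh* had 4931 and 3623. *Oxt* also differed between the Arc arrays (6559 and 848), on which *Gal* was alike. The part of these markers in the *Gal* values was not tested. Given these values, *Gal* is reported below with and without the LH arrays.

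In the fit of all 8 arrays, *Gal* missed the threshold, with an adjusted p of 0.0695 in the F-test across the 4 nuclei. The background of this test was 8.34% of all probes called, and of the 3 family members tested only *Galr1* was called. The nucleus means of *Gal* nevertheless spanned 5.75 on the log2 scale, a range that 0.101% of the tested probes reached. The standard error of each *Gal* difference was 1.22 in log2, in which the gap between LH1 and LH2 is included.

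Between the pairs of nuclei, the difference of *Gal* was 4.85 ± 1.22 for the Arc minus the VMH (log2, SE; adjusted p = 0.0706), where 5.92% of all probes were called. For the VMH minus the DMH it was -5.75 ± 1.22 (adjusted p = 0.0806), where 2.04% of all probes were called. These differences missed the threshold in the fit reported. In other fits of all 8 arrays, both were called with no scaling (adjusted p of 0.0384 and 0.0234), with normexp, another background correction (0.0409 and 0.0381), with probes well above background on all arrays (0.0279 and 0.0299), and with each dim signal raised to the lowest one measured on its array (0.0427 and 0.0419). They were not called with quantile normalization (0.0674 and 0.0776), with no filter on dim probes (0.108 and 0.113), with a replicate block (0.0825 and 0.0954), or with trended and robust moderation (0.172 and 0.229). The unmoderated Tukey-Kramer test, whose p was corrected for the 6 pairs and then again over all probes, did not call them either (0.711 and 0.979). Both calls were also absent when any array of the Arc, VMH, or DMH was left out. Over 22 alternatives each difference kept its direction, and it was called in 9. With the Arc, VMH, and DMH arrays alone, an alternative added after the data were seen, the same differences had a standard error of 0.36 and adjusted p of 0.00093 and 0.00084, and *Gal* passed the F-test (adjusted p = 0.00082). The fold on the log2 scale was 28.9 for the Arc over the VMH and 53.8 for the DMH over the VMH.

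The same calls were made when only LH1 was left out (adjusted p of 0.00109 for the Arc over the VMH and 0.00101 for the DMH over the VMH), when only LH2 was left out (0.00169 and 0.00163), and when the spots in patches were set missing (0.00140 and 0.00141). They were also made in fits of only the 4 arrays compared (0.00109 and 0.00300). The Arc and the DMH differed by -0.90 ± 1.22 in the fit of all arrays, with a 95% interval from -3.78 to 1.98 (adjusted p = 0.905), and 1.26% of all probes were called there. Without the LH arrays, this difference was -0.90 ± 0.36 and also missed the threshold (adjusted p = 0.339). The DMH arrays were thus the brightest for *Gal*, and their lead of 1.86-fold over the Arc was not called.

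The place of the LH in this order depended on which LH array was used. In the fit of all arrays, *Gal* differed from the LH by 2.91 ± 1.22 for the Arc (adjusted p = 0.186), -1.94 ± 1.22 for the VMH (adjusted p = 0.410), and 3.81 ± 1.22 for the DMH (adjusted p = 0.223), where 9.34%, 5.28%, and 0.924% of all probes were called. Without LH1, the LH was higher than the VMH by 4.12 on the log2 scale, that is by 17.4-fold (adjusted p = 0.00581), and its differences from the Arc (1.66-fold lower, adjusted p = 0.328) and the DMH (3.09-fold lower, adjusted p = 0.117) missed the threshold. Without LH2, the LH was lower than the Arc by 34.2-fold (adjusted p = 0.00171) and lower than the DMH by 63.8-fold (adjusted p = 0.00122), and it was near the VMH (difference of 0.25 ± 0.45, VMH minus LH, adjusted p = 0.781). In these fits the lone LH array was assumed to vary like the other nuclei.

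**Figure D4:**
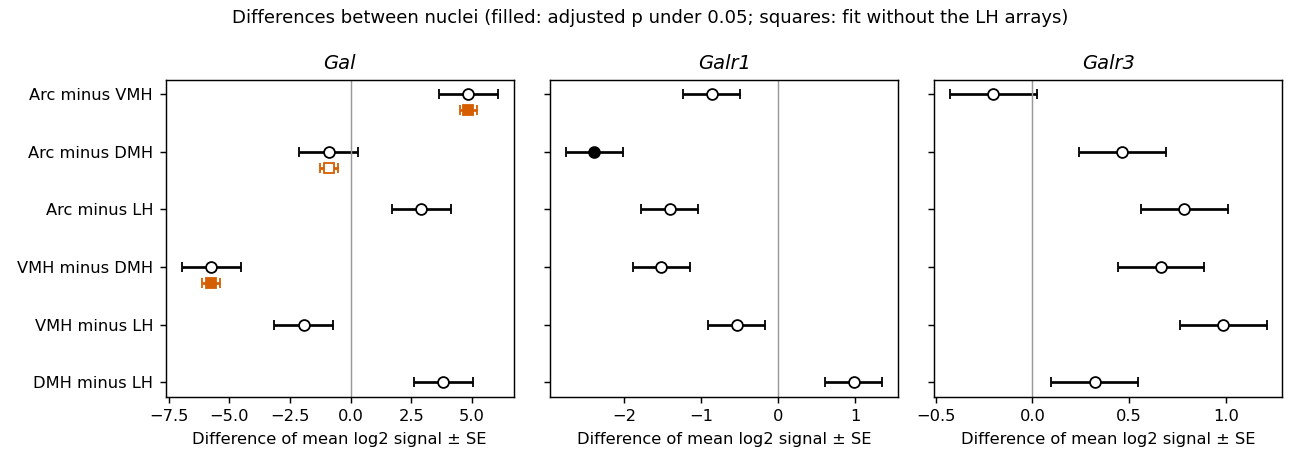
Difference of the mean log2 scaled signal (horizontal axis, ± SE) for the 6 pairs of nuclei, filled where the adjusted p was under 0.05, for the 3 members tested; circles are the fit of all 8 arrays and squares, for *Gal*, the fit without the LH arrays. For *Galr1* the DMH alone was well above background, so that its differences have no firm size. The standard error of *Gal* falls from 1.22 to 0.36 when the LH arrays are left out, and the differences of the VMH from the Arc and the DMH are then called.

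*Galp*, at chr7:6197090-6216137, gave no measured signal in any nucleus. Its scaled signal was 95.1 on Arc1 and 28.9 on Arc2, and 19.9 to 33.3 on the other arrays. Arc1 was the highest, and its value lay under 100.5, the lowest signal that was well above background on this array. With no array well above background, *Galp* has neither an order of the nuclei nor a fold, and the probe was not tested.

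*Galr1*, the inhibitory receptor gene at chr18:82392496-82406777, was measured only in the DMH. Its scaled signal was 134 and 234 in the DMH. It was 32.5 and 35.5 in the Arc, 82.8 and 46.3 in the VMH, and 80.0 and 101 in the LH, where no array was well above background. The signals of the 6 other arrays carry no order.

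*Galr1* passed the F-test across the nuclei (adjusted p = 0.0336), and the difference between the Arc and the DMH was called (adjusted p = 0.0353), where 1.26% of all probes were called. The probe entered the test only through the DMH, where it was high, and with no filter on dim probes both calls were lost (adjusted p of 0.0557 and 0.0513). Since the probe was not measured in the other nuclei, the folds are lower bounds against the lowest measured signal of those arrays, and *Galr1* in the DMH exceeded the Arc by at least 1.57-fold, the VMH by at least 1.71-fold, and the LH by at least 1.72-fold. The differences of the DMH from the VMH (adjusted p = 0.122) and the LH (adjusted p = 0.281) were not called, and neither were the pairs without the DMH (adjusted p of 0.0611 to 0.448).

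The call of *Galr1* was close to the threshold. Replicate 1 of every nucleus lay in one row of the slide and replicate 2 in the other, and with this number as a block the adjusted p was 0.0555 in the F-test and 0.0620 between the Arc and the DMH. When each dim signal was raised, the difference between the Arc and the DMH was -0.65 (adjusted p = 0.603), and with normexp it was -0.58 (adjusted p = 0.35). Leaving out any array of the Arc, VMH, or DMH ended the F-test call (adjusted p of 0.0508 to 0.155), whereas leaving out LH1 (0.0304) or LH2 (0.0343) did not.

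*Galr2*, the receptor gene at chr11:116280106-116283950 that also couples to phospholipase C, was not measured in any nucleus. Its scaled signal was 20.0 to 33.7, with 29.1 to 30.7 in the Arc, 20.0 to 33.7 in the VMH, 20.7 to 22.6 in the DMH, and 24.0 to 28.4 in the LH. These values lie near the minimum to which the software sets low signals, so they carry no order.

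*Galr3*, the remaining receptor gene at chr15:79041885-79043558, was dim and was measured on 6 of the 8 arrays. Its scaled signal was 196 and 153 in the Arc, 185 and 214 in the VMH, 139 and 114 in the DMH, and 102 and 99.1 in the LH, where no array was well above background. The Arc and VMH arrays overlapped, and the DMH arrays lay below them. The LH signals have no place in this order.

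None of the differences of *Galr3* were called. The F-test gave an adjusted p of 0.0899, and the nearest pairs were the VMH over the LH (adjusted p = 0.0543) and the Arc over the LH (adjusted p = 0.0750). As lower bounds, *Galr3* in the LH was exceeded by the VMH by at least 1.72-fold and by the Arc by at least 1.49-fold. The VMH over the LH passed the threshold (adjusted p = 0.0462) when spots in patches were set missing, and under no other alternative. Before correction, p in the fit reported was under 0.05 for the Arc and the VMH against the LH and for the VMH against the DMH. None of these pairs passed after correction in that fit.

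**Figure D5:**
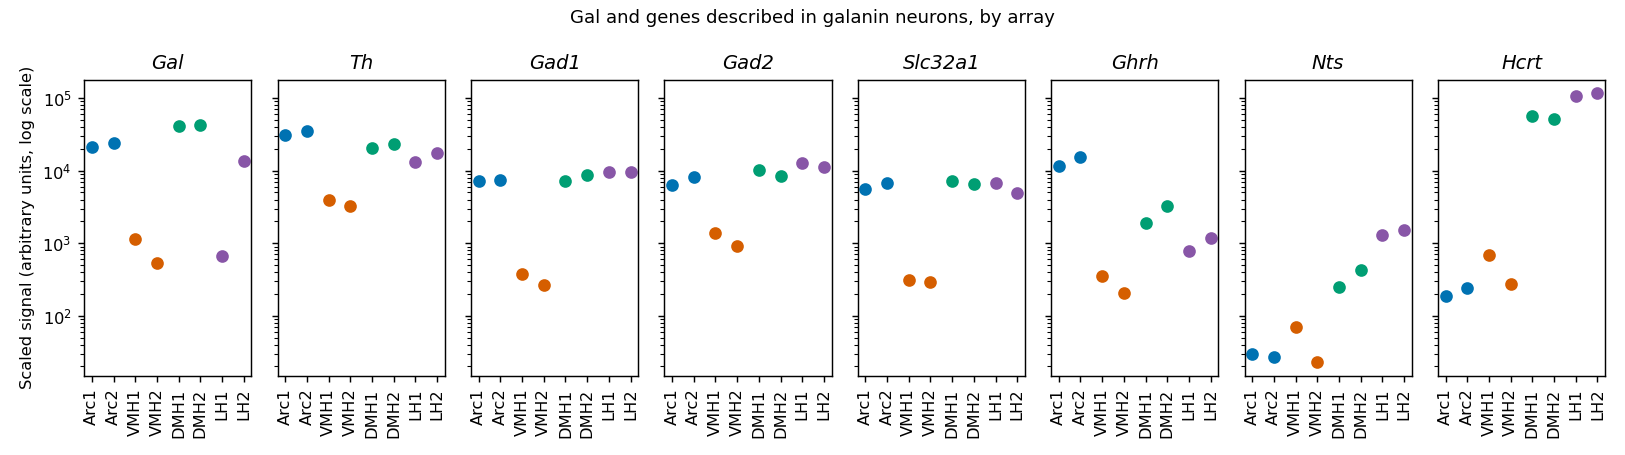
Scaled signal (arbitrary units, log scale) of *Gal* and of 7 genes that are described in galanin neurons, by array (1 point each, colors for nuclei; for *Slc32a1*, 1 of its 2 probes; *Lepr*, the remaining gene of the list, is not shown). The VMH arrays are below the DMH and LH arrays for every partner gene shown, and only *Gal* splits between LH1 (656) and LH2 (13551).

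Genes known from galanin neurons varied widely between the nuclei. The list held the transmitter genes *Th*, *Gad1*, *Gad2*, and *Slc32a1*, the peptide genes *Ghrh*, *Nts*, and *Hcrt*, and the leptin receptor gene *Lepr*. Of its 10 probes tested, 8 were called in the F-test, for 7 of the 8 genes, with a median range of 3.95 in log2, against 8.34% of all probes called and a median range of 0.65 over all probes. In the VMH, 8 of the 10 probes were called lower than in the DMH and the same number were called lower than in the LH, where 2.04% and 5.28% of all probes were called. The remaining probes were those of *Lepr*, which were not called. One had 191 and 254 in the VMH, above 145 and 61.7 in the LH, and 1267 and 181 in the DMH.

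*Hcrt*, the hypocretin gene, had the widest range of the list, with 188 and 241 in the Arc, 684 and 275 in the VMH, 55940 and 51283 in the DMH, and 105971 and 116750 in the LH. *Ghrh*, which encodes growth hormone-releasing hormone, was highest in the Arc with 11681 and 15186, followed by the DMH with 1902 and 3270, the LH with 780 and 1168, and the VMH with 348 and 209. *Nts*, the neurotensin gene, was highest in the LH with 1291 and 1542, followed by the DMH with 246 and 427, and was not well above background in the Arc or the VMH. None of these genes had its highest level in the DMH, where *Gal* was brightest.

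The GABA markers, chosen for mention after their values were seen, were lowest in the VMH. *Gad1*, which encodes a GABA-synthesizing enzyme, had 7310 and 7376 in the Arc, 372 and 265 in the VMH, 7194 and 8710 in the DMH, and 9704 and 9450 in the LH. It was called between the VMH and each of the other nuclei, with log2 differences of 4.55 ± 0.23 for the Arc, 4.66 ± 0.23 for the DMH, and 4.93 ± 0.23 for the LH. *Th*, which encodes tyrosine hydroxylase of dopamine synthesis, had 31311 and 34984 in the Arc, 3900 and 3242 in the VMH, 20687 and 23366 in the DMH, and 13167 and 17263 in the LH. The LH arrays were close to each other for *Gad1* and *Th*.

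Of the closest relatives of the family, 1 of 4 tested probes was called in the F-test (8.34% of all probes). This was a probe of *Kiss1*, the kisspeptin gene, whose signal was 23170 and 16617 in the Arc and 194 to 300 in the other nuclei. Its other probe had 335 and 427 in the Arc and 24.0 to 190 elsewhere and was not called (adjusted p = 0.240), with its LH1 spot, the lowest value, in a patch. The called probe and the other probe of *Kiss1* gave differences between the Arc and the VMH of 6.38 and 1.02 in log2. *Spx*, the gene of a peptide that binds GALR2 and GALR3, was not named on the array, and neither *Gpr151*, a receptor gene related to the family, nor *Kiss1r* was called.

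Of the genes of receptor coupling, 4 of 22 probes were called in the F-test (8.34% of all probes), with a median range of 0.81 in log2 (0.65 over all probes). In the Arc, 6 probes were called lower than in the VMH and none were called higher, where 5.92% of all probes were called in either direction. *Plcb1*, which encodes a phospholipase C beta, had 1287 and 1155 in the Arc and 4974 and 3880 in the VMH on the called probe. *Plcb4*, its relative, had 1147 and 1464 in the Arc and 3780 and 4798 in the VMH. *Kcnj5*, which encodes a G protein-gated potassium channel, had 1439 and 1519 in the VMH and 430 to 667 elsewhere, and it was called between the VMH and each other nucleus. The genes of inhibitory G proteins (*Gnai1*, *Gnai2*, *Gnai3*, and *Gnao1*) were not called, with adjusted p of 0.0897 to 0.412 in the F-test.

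Of the genes of peptide processing, 3 of 11 probes were called (8.34% of all probes), with a median range of 0.67 in log2, near that of all probes (0.65). *Pcsk1*, a proprotein convertase gene, was highest in the LH with 2839 and 3048 and lowest in the VMH with 1004 and 990. *Pcsk2*, another convertase gene, had 8621 and 11772 in the Arc and 24368 and 22578 in the VMH on the called probe, and the LH, with 21563 and 24180, overlapped the VMH. *Chga*, which encodes a granule protein, had 6780 and 4636 in the Arc and 15857 and 13241 in the VMH. The calls of *Pcsk2* and *Chga* were close to the threshold (adjusted p of 0.0495 and 0.0481), and 0 of the 11 probes were called with no scaling and 1 with quantile normalization.

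The second *Pcsk2* probe had 250 on LH1 and 4896 on LH2, and its LH1 spot lay in a patch, as that of *Gal* did. Of the listed probes, 6 in the pathway lists had an LH1 spot in a patch, and no listed probe had an LH2 spot in a patch. The listed probes were not searched for patches on the Arc, VMH, and DMH arrays. The *Slc32a1* probe concerned had 17842 on LH1 and 27479 on LH2, and the other *Slc32a1* probe, whose spot lay in no patch of LH1, had 6682 and 4928. The part of the patches in these values was not tested.

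Over the 8 arrays, the probes most like *Gal* were those of *Flrt3* (Pearson r = 0.973), *Aph1b* (0.957), *Cd274* (0.956), *Micos10* (0.953), and *E2f5* (0.945), among 17234 probes of named genes. The likeness included the low value of LH1, and the *Flrt3* spot lay in a patch of LH1 as well, with 1852 on LH1 and 7329 on LH2. Over the 7 arrays without LH1, chosen after the values were seen, these genes ranked from place 23 to place 108. The closest probes were then those of *Dlx1as* (r = 0.999), *Dlx2* (0.994), *Foxd2* (0.993), *Dlx1* (0.989), and *Lrrc55* (0.988). *Dlx1* and *Dlx2* encode homeobox transcription factors of GABA neurons, and *Dlx1as* is read from the strand opposite to *Dlx1*. Whether the labelling kept the strand is not given in the sources used here.

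The *Dlx1as* probe had 5264 and 7249 in the Arc, 191 and 76.2 in the VMH, and 11212 and 13626 in the DMH, and in the LH it had 6139 and 4348. The *Dlx1* probe had 926 and 1167 in the Arc, 77.2 and 22.5 in the VMH, 1895 and 1921 in the DMH, and 1620 and 1141 in the LH. On LH1, the array left out of the likeness, these probes were higher than on LH2, whereas the *Dlx2* probe was lower (402 and 503). The values of r are descriptions over arrays that share a slide and, for each nucleus, a tissue.

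For *Galr1*, the closest probes over the 8 arrays were those of *Tstd1* (r = 0.987), *Trhde* (0.968), *Pfn4* (0.957), *Rftn1* (0.949), and *Slc7a3* (0.933). *Trhde*, which encodes an enzyme that degrades thyrotropin-releasing hormone, had 719 and 827 in the DMH, 182 and 184 in the Arc, 463 and 327 in the VMH, and 428 and 461 in the LH. It shared with *Galr1* a DMH above the other nuclei. For *Galr3*, the closest probes were those of *Ifi27l2a* (0.972), *Caprin1* (0.967), *1700016K19Rik* (0.965), *Rfx3* (0.964), and *Bpifb1* (0.964). Since 6 of the *Galr1* values and 2 of the *Galr3* values were not well above background, these likenesses rest in part on dim signals.

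Markers of other cells were given beside the family as measured. The oligodendrocyte list (10 probes) summed to 113812 and 119528 on the LH arrays and to 19056 to 47478 on the others. Within it, an *Mbp* probe had 1328 and 1188 in the LH and 1497 to 3470 elsewhere, and another *Mbp* probe was also lowest on average in the LH. The remaining probes of the list were highest in the LH. The endothelial list (5 probes) summed to 4800 and 6274 on the LH arrays and to 2535 to 4183 elsewhere. The astrocyte list (8 probes) summed to 29066 and 35215 on the LH arrays and to 18687 to 27070 elsewhere. Without its brightest probe, that of *Aldh1l1*, the astrocyte list summed to 20912 and 24151 on the LH arrays and to 15188 to 21597 elsewhere. *Gfap* was highest in the Arc, with 3735 and 6337 there and 2412 and 3109 in the LH on its brightest probe. The list of ependymal cells and tanycytes (7 probes) summed to 6989 and 7117 on the Arc arrays and to 1467 to 2935 elsewhere, with the lead of the Arc in *Rax*, *Crym*, and *Col23a1*. *Ccdc153* of the same list had 891 and 1138 in the Arc and 696 to 1282 elsewhere, and *Foxj1* was measured on 0 of the 8 arrays. In the microglia list, a single *Csf1r* probe, with 63119 and 67652 in the LH and 84884 to 108110 elsewhere, made up most of the sum, and the other 7 probes summed to 17781 and 23229 on the LH arrays and to 12694 to 16281 on the others. The pituitary markers *Prl*, *Gh*, and *Tshb* were not well above background on any array, *Cga* was measured on Arc1 alone (1425), and *Lhb* was measured, at a dim level, on VMH2 (100.2), DMH1 (103), and DMH2 (115). The part of these cells in the galanin family values was not tested.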

How the data were processed

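RNA of laser-microdissected Arc, VMH, DMH, and LH was amplified with the WTA2 kit, labeled with the Kreatech ULS kit, and hybridized to Agilent mouse arrays, 2 per nucleus. The authors extracted spot intensities with Agilent Feature Extraction (11.5.1.1 in the methods and 10.7.3.1 in the file headers). The deposited intensity is the processed signal of the red channel on a linear scale, which the software corrected for background and spatial trends and raised to a minimum where very low, without scaling between arrays. The dye is Cy3 in the labels and Cy5, which is read in red, in the methods.

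Spots marked as outliers by the software were left out, the other spots were averaged per probe, and log2 was taken after division by the 75th percentile of the array. A probe was tested where some nucleus had it well above background on each of its arrays (28896 of 55681) in 1 limma model with a mean for each nucleus (limma 3.58.1, R 4.3.3; 4 residual and 3.02 prior degrees of freedom). Each F-test and each of the 6 pairs was adjusted by Benjamini and Hochberg over all probes tested. RefSeq accessions named 26762 of 28390 probes (94.3%) through GRCm38.p6. The fits were tested on simulated data. Precision is limited by the small number of arrays and, for dim probes, by background.

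The members and gene lists were chosen with earlier results of these data known. Of the lists, at most 3 genes past the F-test were named, those with the widest range of nucleus means, and the 5 probes most correlated with each tested member. Genes named otherwise were chosen after their values were seen. Where a nucleus has no array well above background, the fold is a lower bound, against the higher, on each of its arrays, of the lowest measured signal and the signal of the probe.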

Additional observations from a re-analysis of the deposited data

How the results depend on the processing

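Over 27 alternatives, 427 of 433 differences and ranges of *Gal*, *Galr1*, and *Galr3* kept their direction. Of the 6 that turned, 0 were called. They were the VMH minus the LH for *Gal* without LH2 (0.25, with a range of -4.12 to 0.25 as arrays were left out in turn), the Arc minus the DMH for *Galr3* with no scaling (-0.016), the DMH minus the LH for *Galr3* with normexp (-0.13), and, where each dim signal was raised, the Arc minus the VMH (0.12), the Arc minus the LH (0.14), and the VMH minus the LH (0.015) for *Galr1*. With no scaling the median of all probes for the Arc minus the DMH was -0.46 in log2, against 0.02 with scaling.

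In the fit reported above, the F-test called 1 of the 5 genes (*Galr1*), the Arc-DMH pair called 1 (*Galr1*), and the other pairs called 0. With no scaling the F-test called 2 (*Gal* and *Galr1*), Arc-VMH 1 and VMH-DMH 1 (*Gal*), and Arc-LH 1 (*Galr1*), and 0 probes of peptide processing were called. With quantile normalization Arc-LH called 1 (*Galr1*), and 1 probe of peptide processing was called. With normexp the F-test called 1, *Gal* in place of *Galr1*, Arc-VMH called 1 and VMH-DMH 1 (*Gal*) and Arc-DMH 0, and 7 probes of receptor coupling were called. With no filter on dim probes the F-test and Arc-DMH called 0, and 1 probe of peptide processing was called. With probes well above background on all 8 arrays, where only *Gal* was tested, the F-test called 1, Arc-VMH 1, VMH-DMH 1, and Arc-DMH 0, and 7 probes of receptor coupling were called. With dim signals raised the F-test called 1, again *Gal* in place of *Galr1*, Arc-VMH called 1 and VMH-DMH 1 (*Gal*) and Arc-DMH 0, and 2 probes of the closest relatives were called. With trended and robust moderation the F-test and Arc-DMH called 0, and 8 probes of receptor coupling were called. With the unmoderated F-test and the Tukey-Kramer test, both called 0, and 1 probe of receptor coupling, 1 of peptide processing, and 5 of the partner transmitters were called. Of all probes, the F-test called 529 with no moderation and 2410 in the fit reported. With only the 4 arrays of the pair, Arc-VMH called 1 and VMH-DMH 1 (*Gal*).

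The alternatives chosen after seeing the data were as follows. With only the Arc, VMH, and DMH arrays, the F-test called 2 (*Gal* and *Galr1*), Arc-VMH 1 and VMH-DMH 1 (*Gal*), and 3 probes of the closest relatives were called. With spots in patches set missing, the F-test called 2 (*Gal* and *Galr1*), Arc-VMH 1 and VMH-DMH 1 (*Gal*), and VMH-LH 2 (*Gal* and *Galr3*), and 2 probes of the closest relatives and 7 of receptor coupling were called.

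Leaving out each array in turn, the F-test called 0 to 2 of the genes, and each of the 6 pairs called 0 to 1. Among the lists, the F-test then called 1 to 3 probes of the closest relatives, 0 to 6 of receptor coupling, 0 to 4 of peptide processing, and 8 to 9 of the partner transmitters. Over all probes it called 3.06% to 5.01% (897 to 1502 probes) without an array of the Arc, VMH, or DMH, against 3365 probes without LH1 and 3650 without LH2.

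With the replicate block, the F-test and Arc-DMH called 0 of the 5 genes, 1 probe of peptide processing was called, and the other pairs called the same number of the 5 genes as without it. The deviations of equal replicate numbers correlated with r of -0.027 to 0.258 between nuclei, and the labels do not say that a number marks a mouse.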
